A study of Rattus norvegicus with 10 samples.

Results

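Chemokines are small secreted or membrane-bound proteins that guide leukocytes, and in sensory ganglia they also pass signals between neurons, glia and macrophages. The genes described here are 7 chemokine ligands and 1 receptor: Cx3cl1, Cx3cr1, Cxcl9, Cxcl10, Cxcl12, Cxcl14, Cxcl16 and Ccl2. They were taken by gene name from a table of 30560 genes, where each of the 8 names had 1 row, and all 8 had enough counts to be tested. Fractalkine, the product of Cx3cl1, is made by neurons as a membrane-bound protein whose chemokine domain can be shed, and its receptor CX3CR1 is carried by macrophages and microglia. CXCL9 and CXCL10 are induced by interferons and bind CXCR3 on T cells, while CXCL12 binds CXCR4 and the scavenging receptor ACKR3.

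The tissue was the L6 dorsal root ganglion, which holds the cell bodies of sensory neurons together with their glia, taken from Sprague Dawley rats (7 to 8 weeks old). The treated group (n = 5) received SCN9A_2544, a divalent siRNA (a small interfering RNA, which lowers the transcript it pairs with) against the sodium channel gene Scn9a, at 0.75 mg through a catheter in the lumbar intrathecal space, and the control group (n = 5) received phosphate-buffered saline (PBS) in that way. All rats had the catheter implanted under isoflurane, were given sustained-release meloxicam, an anti-inflammatory drug, and were dosed 5 days later in 30 to 45 µL between saline flushes. Every sample is labelled 14 days, with no starting event named. Since the labels do not tie each sample to a rat of its own, the p-values cover the spread among these samples, which may be technical.

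Scn9a, the target of the siRNA, stood at 44.6 to 103 CPM (counts scaled to the size of the library) in SCN9A_2544 libraries, against 132 to 257 CPM in PBS libraries, so every library matched its label. Its log2 fold change was -1.03 (SE 0.25), and its adjusted p of 0.963 by edgeR missed the threshold as well, so a miss here does not show that a gene did not change. Library totals were 11832376 to 15420006 estimated counts. All 20 pan-neuronal markers were detected, and the mean of these markers ran from 7.77 to 9.16 log2 CPM in SCN9A_2544 and from 8.05 to 9.17 in PBS libraries. SCN9A_2544 replicate 3, PBS replicate 3 and PBS replicate 5 had the lowest means, so fold changes that moved by over 1.5 times without these 3 neuron-poor libraries are also given without them. CPM values are not divided by transcript length, so levels are compared between groups and not between genes.

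By edgeR's quasi-likelihood test over all 15186 tested genes, 0 of the 8 genes passed an adjusted p of 0.05 in either direction, as did 0% of all genes. An unadjusted p under 0.05 was reached by 3 of the 8, Cxcl9 and Cx3cr1 on the higher side and Cxcl12 on the lower, and by 4.23% of all genes tested (2.5% higher and 1.73% lower). DESeq2 called 0 of the 8 and 0.095% of the genes it tested, with 4.35% of genes at an unadjusted p under 0.05. Under weighted limma voom the calls were 0 of the 8 and 0.00659% of all genes, with 20.9% at an unadjusted p under 0.05. The log2 fold change of SCN9A_2544 over PBS was above 0 for 7 of the 8 genes, against 53.4% of all tested genes, and its median was 0.61, against 0.02 over all tested genes. The adjusted p by edgeR was 0.963 for each of the 8. The groups overlapped for all 8 genes, while 0.454% of all genes had every SCN9A_2544 library above every PBS library and 0.211% had every one below.

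**Figure D1:**
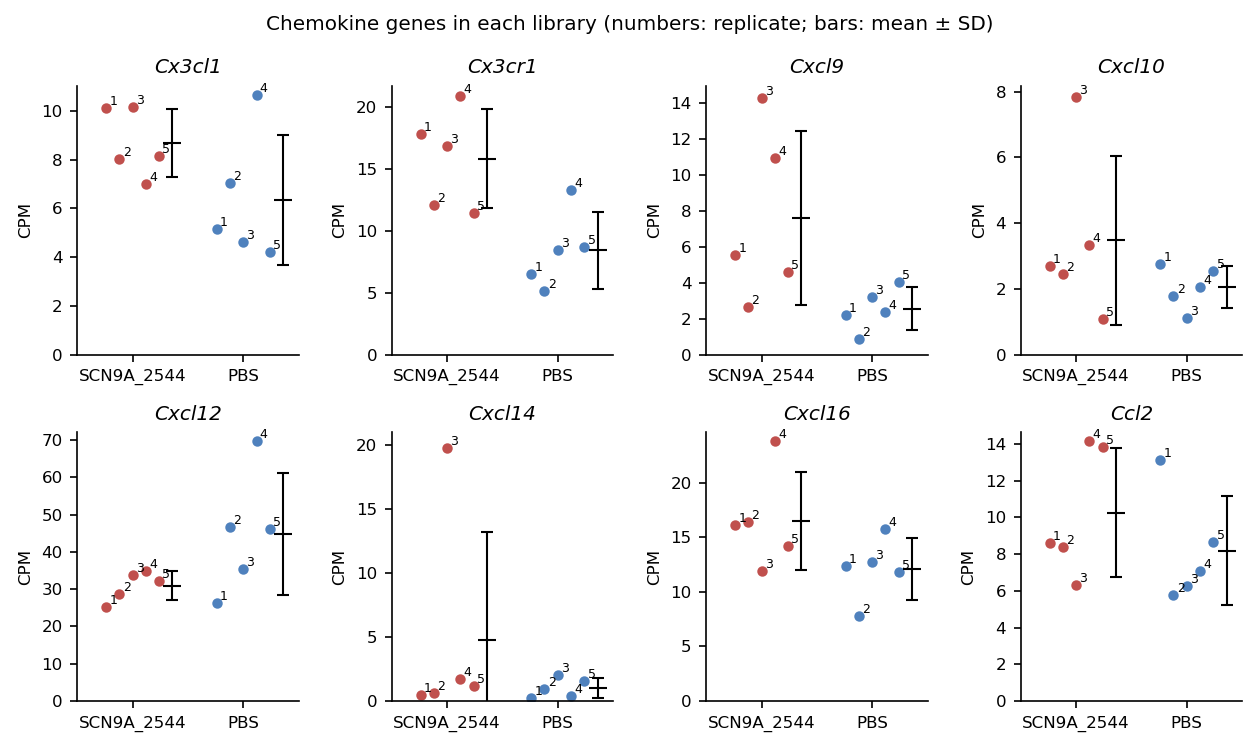
Level of each gene in every library, in CPM on the vertical axis from 0, with SCN9A_2544 on the left and PBS on the right of each panel. Points carry the replicate number, bars show the mean ± SD of 5 libraries, and the lower end of the SCN9A_2544 bar of Cxcl14 is cut at 0. For Cx3cr1, 3 SCN9A_2544 libraries lie above the highest PBS library, for Cxcl9 4 do, and for Cxcl14 replicate 3 alone stands at 19.8 CPM.

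Cx3cr1 (ENSRNOG00000018509), the fractalkine receptor, had the smallest p of the 8 genes and ranked 43rd of the 15186 tested genes. Its levels were 17.8, 12.1, 16.8, 20.9 and 11.5 CPM in SCN9A_2544 replicates 1 to 5, against 6.52, 5.12, 8.43, 13.3 and 8.68 CPM in PBS replicates 1 to 5. All 5 SCN9A_2544 libraries lay above the PBS median of 8.43 CPM, and the overlap came from PBS replicate 4, which lay above SCN9A_2544 replicates 2 and 5. The mean was 15.8 ± 3.99 CPM in SCN9A_2544 and 8.42 ± 3.11 CPM in PBS ganglia (SD, n = 5 each). The edgeR log2 fold change was 0.91 (SE 0.26, 95% interval 0.34 to 1.49), a 1.88-fold higher level, with an adjusted p of 0.963 by edgeR and 0.322 by DESeq2. Without PBS replicate 4 the log2 fold change was 1.14, and it kept its sign in all 20 alternatives, where it ran from 0.62 with the macrophage marker mean as a covariate to 1.15 with limma voom.

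Macrophage markers were set beside Cx3cr1. Among 18 markers tested, 16 were above 0 in log2 fold change, and their mean was 4.39 ± 0.39 log2 CPM in SCN9A_2544 and 3.90 ± 0.22 in PBS ganglia (SD, n = 5 each). Their summed level ran from 578 to 1310 CPM in SCN9A_2544 and from 514 to 773 CPM in PBS libraries, with 0 of the 18 markers at 0. For 5 of them every SCN9A_2544 library lay above every PBS library, against 0.454% of all tested genes. By edgeR 0 of them passed, as did 0% of all genes, and by DESeq2 1 passed, against 0.095% of the genes it tested. Satellite glia markers differed in the same direction: their mean was 6.18 ± 0.11 log2 CPM in SCN9A_2544 and 5.89 ± 0.12 in PBS ganglia (SD, n = 5 each), 8 of 11 were above 0 in log2 fold change, their summed level ran from 4466 to 5344 CPM in SCN9A_2544 and from 3259 to 4734 CPM in PBS libraries, and 0 were at 0. For 1 of the 11 satellite glia markers every SCN9A_2544 library lay above every PBS library, and 0 passed by edgeR or DESeq2. The part of either cell type in the Cx3cr1 result was not tested beyond the covariate and ratio given here. The macrophage marker mean was itself higher on average in SCN9A_2544 ganglia, so a fit with it as a covariate cannot tell group and markers apart. With that covariate the SE of the Cx3cr1 log2 fold change was 0.35, against 0.26 without it. In whole ganglia, a difference in the number of cells of a type and one in RNA per cell cannot be told apart. Set against the macrophage marker mean of the same library, Cx3cr1 stood at -0.43 ± 0.23 on the log2 scale in SCN9A_2544 and -0.88 ± 0.60 in PBS ganglia. The difference was 0.45, with a two-sided exact permutation p = 0.151 and an adjusted p = 0.393 over the 3 such contrasts tested. The exact test over splits into 5 and 5 cannot go below p = 0.00794. This result depended on single libraries. Without PBS replicate 4 the difference was 0.62 with an exact permutation p = 0.00794, the smallest that test can give. Without PBS replicate 2 it was 0.21 with an exact permutation p = 0.294. These p-values were not adjusted for leaving out each library in turn.

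Cx3cl1 (ENSRNOG00000016326), the ligand, stood at 10.1, 8.03, 10.1, 6.99 and 8.15 CPM in SCN9A_2544 replicates 1 to 5, against 5.15, 7.05, 4.64, 10.7 and 4.21 CPM in PBS replicates 1 to 5. The highest value of all belonged to PBS replicate 4, so 0 SCN9A_2544 libraries lay above the PBS range, although all 5 lay above the PBS median of 5.15 CPM. The mean was 8.69 ± 1.40 CPM in SCN9A_2544 and 6.34 ± 2.65 CPM in PBS ganglia (SD, n = 5 each). The edgeR log2 fold change was 0.46 (SE 0.26, 95% interval -0.12 to 1.03). It was 0.72 without PBS replicate 4 and 0.11 without the 3 neuron-poor libraries. Against the pan-neuronal marker mean, Cx3cl1 stood at -5.66 ± 0.71 on the log2 scale in SCN9A_2544 and -6.07 ± 0.41 in PBS ganglia, a difference of 0.41 (two-sided exact permutation p = 0.413, adjusted p = 0.413). Without SCN9A_2544 replicate 3 that difference was 0.10 (exact permutation p = 0.794), without PBS replicate 1 it was 0.25 (exact permutation p = 0.825), and without the 3 neuron-poor libraries it was 0.15 (exact permutation p = 0.8).

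Ligand and receptor were also set against each other within each library. Cx3cl1 minus Cx3cr1 was -0.83 ± 0.43 on the log2 CPM scale in SCN9A_2544 and -0.41 ± 0.57 in PBS ganglia (SD, n = 5 each). The difference of -0.42 had a two-sided exact permutation p = 0.262 and an adjusted p = 0.393. It was -0.20 without PBS replicate 2 and -0.24 without SCN9A_2544 replicate 4, and -0.79 without the 3 neuron-poor libraries (exact permutation p = 0.0571).

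The 2 interferon-inducible ligands stand next to each other in the rat genome, in the order Cxcl11, Cxcl10, Cxcl9 in the RefSeq annotation of the build GRCr8. Their upstream sequences are shown because these neighbours differed in how their levels were spread over the libraries, and that of Cx3cr1 is shown because its level ran with that of Cxcl9. RefSeq promoters of GRCr8 were matched by symbol for 7 of the 8 genes. Each line gives the 250 bases before the start of the transcript, 5′ to 3′ on the strand of the gene, and capitals mark letters that match one of the motifs described next.
Cxcl9, chr14:16006916-16007165, plus strand: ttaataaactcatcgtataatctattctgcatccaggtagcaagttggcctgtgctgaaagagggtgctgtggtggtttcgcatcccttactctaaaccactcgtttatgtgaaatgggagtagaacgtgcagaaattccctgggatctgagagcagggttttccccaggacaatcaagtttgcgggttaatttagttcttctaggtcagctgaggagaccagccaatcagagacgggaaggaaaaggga
Cxcl10, chr14:15988816-15989065, plus strand: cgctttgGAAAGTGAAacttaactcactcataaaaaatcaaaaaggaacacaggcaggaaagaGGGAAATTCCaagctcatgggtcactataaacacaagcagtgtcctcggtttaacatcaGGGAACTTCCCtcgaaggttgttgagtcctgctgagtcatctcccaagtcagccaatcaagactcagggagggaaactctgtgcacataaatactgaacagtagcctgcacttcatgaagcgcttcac
Cx3cr1, chr8:128677067-128677316, minus strand: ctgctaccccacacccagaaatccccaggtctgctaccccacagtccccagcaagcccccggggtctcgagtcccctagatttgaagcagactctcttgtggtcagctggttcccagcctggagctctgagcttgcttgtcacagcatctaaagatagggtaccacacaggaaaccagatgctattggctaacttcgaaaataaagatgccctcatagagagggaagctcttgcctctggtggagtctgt

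Both strands were searched for the consensus site of NF-kB, a factor activated by inflammatory signals, and for GAAANNGAA, the core of the interferon-stimulated response element. The window of Cxcl10 held the response element core at 243 to 235 bases before the start and the NF-kB consensus at 187 to 178 and at 128 to 118 bases before it, the nearer as 2 overlapping matches on opposite strands. The window of their neighbour Cxcl11, not printed here, held the NF-kB consensus at 74 to 65 bases before the start. No match lay in the windows of Cxcl9, Cx3cr1, Cxcl12, Cxcl14, Cxcl16 and Cx3cl1. This says only that these letters are not in these windows. A link between the motifs and the levels of these genes was not tested. Of 33469 RefSeq windows of the same length, 6.33% held the NF-kB consensus and 8.12% the response element core.

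Cxcl9 (ENSRNOG00000022242) stood at 5.54, 2.65, 14.3, 10.96 and 4.58 CPM in SCN9A_2544 replicates 1 to 5, against 2.20, 0.86, 3.23, 2.39 and 4.07 CPM in PBS replicates 1 to 5. SCN9A_2544 replicates 3 and 4 were the highest, 4 of the 5 SCN9A_2544 libraries lay above the whole PBS range, and replicate 2 lay inside it. The mean was 7.61 ± 4.85 CPM in SCN9A_2544 and 2.55 ± 1.20 CPM in PBS ganglia (SD, n = 5 each). The edgeR log2 fold change was 1.57 (SE 0.49, 95% interval 0.51 to 2.64), a 2.98-fold higher level, with an adjusted p of 0.963 by edgeR and 0.345 by DESeq2. It kept its sign in all 20 alternatives. Its lowest value was 0.57 (SE 0.65) with the macrophage marker mean as a covariate, a mean that itself differed between the groups. With 1 library left out the log2 fold change ran from 1.18 without SCN9A_2544 replicate 3 to 1.79 without SCN9A_2544 replicate 2.

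Cxcl10 (ENSRNOG00000022256) stood at 2.698, 2.45, 7.83, 3.34 and 1.08 CPM in SCN9A_2544 replicates 1 to 5, against 2.75, 1.80, 1.12, 2.05 and 2.54 CPM in PBS replicates 1 to 5. Replicates 3 and 4 were again the highest of the SCN9A_2544 libraries, but replicate 5 was the lowest of all 10. The mean was 3.48 ± 2.57 CPM in SCN9A_2544 and 2.05 ± 0.64 CPM in PBS ganglia (SD, n = 5 each), and the edgeR log2 fold change was 0.76 (SE 0.46, 95% interval -0.24 to 1.76). Without SCN9A_2544 replicate 3 it was 0.19, and without the 3 neuron-poor libraries 0.097. Over the 10 libraries Cxcl9 and Cxcl10 had a Pearson r of 0.59, and Cxcl9 and Cx3cr1 one of 0.83, given as a description of genes chosen together. After the mean of each group was subtracted, r was 0.508 for Cxcl9 with Cxcl10 and 0.658 for Cxcl9 with Cx3cr1.

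Of the genes tied to these ligands, Cxcl11, Cxcr3 and Ifng had few counts or none. Cxcl11, a further CXCR3 ligand, had 0 to 17 counts per library in SCN9A_2544 and 0 to 3 in PBS, too few to test. CXCR3 itself had 4 to 13 counts per library in SCN9A_2544 and 0 to 4 in PBS and was also below the filter. Interferon gamma (Ifng) had 0 counts in all 10 libraries, which allows up to 3 counts per library and covers counting error only. Among 12 T and B lymphocyte markers, 10 had a row and 4 were tested, and their summed level was 11.9 to 25.6 CPM in SCN9A_2544 and 6.47 to 39.6 CPM in PBS libraries. Irf1, a transcription factor induced by interferon, stood at 12.1 ± 3.21 CPM in SCN9A_2544 and 10.4 ± 3.14 CPM in PBS ganglia (SD, n = 5 each), giving 0.22 as log2 fold change (95% interval -0.31 to 0.75). That value was 0.033 without SCN9A_2544 replicate 3, 0.39 without PBS replicate 3, 0.35 without the 3 neuron-poor libraries and 0.0024 with the macrophage marker mean as a covariate.

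Cxcl12 (ENSRNOG00000013589), a chemokine of stromal and endothelial cells and of glia, was the 1 gene of the 8 with a log2 fold change below 0. It stood at 25.2, 28.8, 33.8, 34.9 and 32.1 CPM in SCN9A_2544 replicates 1 to 5, against 26.2, 46.6, 35.4, 69.8 and 46.1 CPM in PBS replicates 1 to 5. All 5 SCN9A_2544 libraries lay below the PBS median of 46.1 CPM, and PBS replicate 1 lay among them. The mean was 31.0 ± 3.99 CPM in SCN9A_2544 and 44.8 ± 16.3 CPM in PBS ganglia (SD, n = 5 each), with the PBS spread the wider. The edgeR log2 fold change was -0.53 (SE 0.23, 95% interval -1.03 to -0.04), with an adjusted p of 0.963 by edgeR and 0.863 by DESeq2. It was -0.32 without PBS replicate 4 and -0.68 without PBS replicate 1.

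The genes of both CXCL12 receptors were tested, and neither passed the threshold. Cxcr4 stood at 25.7 ± 4.30 CPM in SCN9A_2544 and 24.4 ± 7.43 CPM in PBS ganglia (SD, n = 5 each), giving 0.08 as log2 fold change (95% interval -0.40 to 0.56). Ackr3 stood at 10.4 ± 2.40 CPM in SCN9A_2544 and 10.3 ± 4.20 CPM in PBS ganglia, giving 0.02 as log2 fold change (95% interval -0.59 to 0.63). Among the cell types that can make CXCL12, endothelial markers averaged 4.25 ± 0.19 log2 CPM in SCN9A_2544 and 4.22 ± 0.21 in PBS ganglia, with 6 of 11 above 0 in log2 fold change (SD, n = 5 each). Fibroblast markers averaged 7.57 ± 0.28 in SCN9A_2544 and 7.55 ± 0.76 in PBS ganglia, but their members went both ways, with 7 of 11 below 0 in log2 fold change, a median of -0.38, Dcn at -0.71 and Fbln1 at 1.08. Schwann cell markers averaged 8.77 ± 0.78 in SCN9A_2544 and 8.98 ± 0.85 in PBS ganglia, with 12 of 15 below 0 and a median of -0.28. Satellite glia markers, given above, had a median of 0.31. With the Schwann cell mean as a covariate the log2 fold change of Cxcl12 was -0.52. Over the 10 libraries its largest rho with a marker list was 0.697, with endothelial markers (permutation p = 0.0306, adjusted p = 0.371). Its r with that list was 0.375 (permutation p = 0.277, adjusted p = 0.757). The part of these cell types in the Cxcl12 values was not tested beyond this covariate and such correlations.

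Cxcl14 (ENSRNOG00000011984), a chemokine of epithelial and stromal cells, had the widest interval of the 8. It stood at 0.44, 0.61, 19.8, 1.70 and 1.21 CPM in SCN9A_2544 replicates 1 to 5, against 0.21, 0.93, 2.04, 0.43 and 1.60 CPM in PBS replicates 1 to 5. These are 6, 9, 291, 27 and 18 counts in SCN9A_2544 and 3, 14, 29, 5 and 24 counts in PBS libraries. Replicate 3 alone stood above the PBS range in the SCN9A_2544 group. The edgeR log2 fold change of 2.17 (SE 1.03, 95% interval -0.07 to 4.42) was -0.11 without that library and 0.88 without the 3 neuron-poor libraries, and DESeq2 gave no p for this gene. It was 1.56 (SE 0.33, adjusted p = 0.276 by edgeR) with the pan-neuronal marker mean as a covariate and 1.90 (SE 0.34, adjusted p = 0.13 by edgeR) with the Schwann cell mean. With the macrophage mean as a covariate it was -0.79 (SE 1.36, adjusted p = 0.853 by edgeR), a spread that does not settle its sign. In the PBS group, too, the highest levels were in the neuron-poor replicates 3 and 5.

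Cxcl14 was higher where the neuronal marker mean was lower. Over the 10 libraries its log2 CPM had a Pearson r of -0.871 with the pan-neuronal marker mean (permutation p = 0.0003, adjusted p = 0.0108) and a Spearman rho of -0.903 (permutation p = 0.00101, adjusted p = 0.0364). With the Schwann cell and myelin marker mean r was 0.841 (permutation p = 0.00018, adjusted p = 0.0108) and rho 0.927 (permutation p = 0.0004, adjusted p = 0.0288). Without SCN9A_2544 replicate 3 and PBS replicate 3, the 2 libraries farthest from the median of each marker mean, r was -0.722 and 0.812. After the mean of each group was subtracted, r was -0.956 and 0.94. These 2 relations were the only ones of 72, formed by 8 genes and 9 marker lists, with an adjusted p under 0.05 for both r and rho. They are not independent, since the 2 marker means ran against each other. SCN9A_2544 replicate 3 had a pan-neuronal mean of 7.77 and a Schwann cell mean of 10.07 log2 CPM, and PBS replicate 1 had 9.14 and 7.84.

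**Figure D2:**
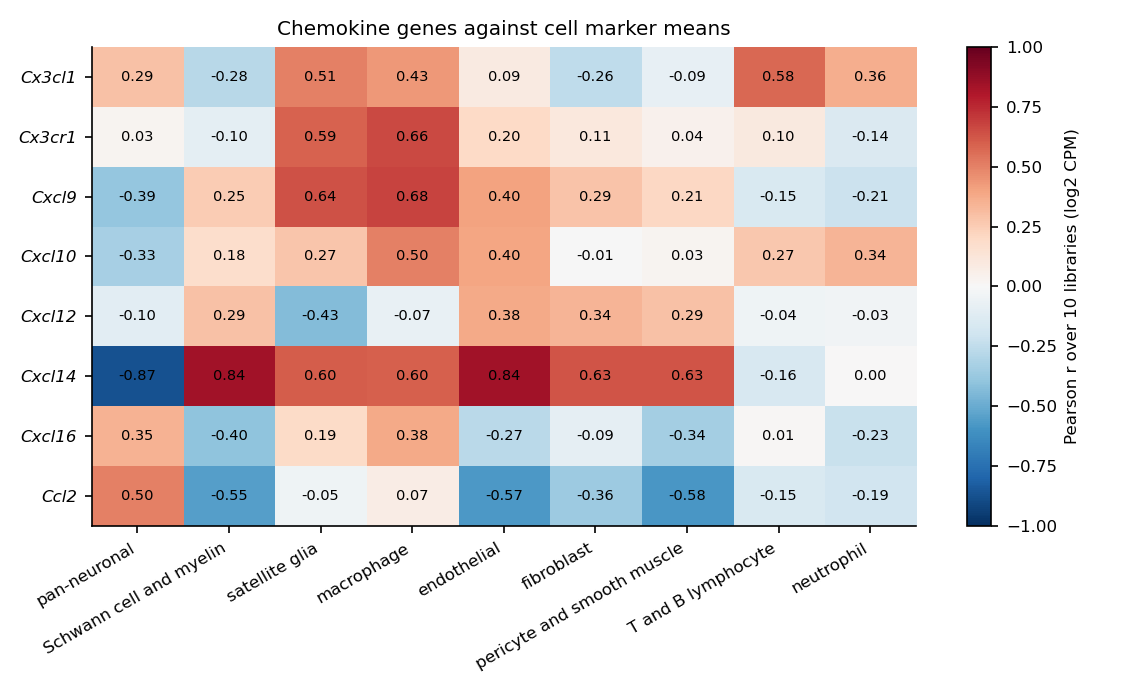
Pearson r over the 10 libraries between the log2 CPM of each gene (rows) and the mean log2 CPM of each cell marker list (columns), from -1 in blue to 1 in red. The strongest values are those of Cxcl14, at -0.87 with pan-neuronal and 0.84 with Schwann cell and endothelial markers.

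The other genes followed no marker list past the adjusted threshold for r. Cxcl9 had rho = 0.83 with the satellite glia mean (permutation p = 0.0044, adjusted p = 0.0792), against r = 0.64 (permutation p = 0.0448, adjusted p = 0.412). That r was 0.447 without the 2 libraries farthest from the median and 0.216 after the mean of each group was subtracted. With the macrophage marker mean Cxcl9 had r = 0.675 (permutation p = 0.0326, adjusted p = 0.412), and 0.0134 without the 2 libraries farthest from the median. Cx3cr1 with the macrophage marker mean had r = 0.659 (permutation p = 0.0377, adjusted p = 0.412) and rho = 0.673 (permutation p = 0.0403, adjusted p = 0.415). Leaving out SCN9A_2544 replicates 3 and 4, the 2 libraries farthest from the median, gave r = 0.3, so the relation rested on them. After the mean of each group was subtracted, this r was 0.326. Cx3cl1 with the pan-neuronal mean had r = 0.292 (permutation p = 0.408, adjusted p = 0.788) and rho = 0.406 (permutation p = 0.246, adjusted p = 0.657). Without SCN9A_2544 replicate 3 and PBS replicate 3, r was 0.713, since SCN9A_2544 replicate 3 combined the lowest neuronal mean with one of the highest Cx3cl1 levels. The relation of Cxcl14 with fibroblast markers passed for rho alone (rho = 0.879, permutation p = 0.0016, adjusted p = 0.0384, against r = 0.632, permutation p = 0.0653, adjusted p = 0.412), with r = 0.649 without the 2 libraries farthest from the median.

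**Figure D3:**
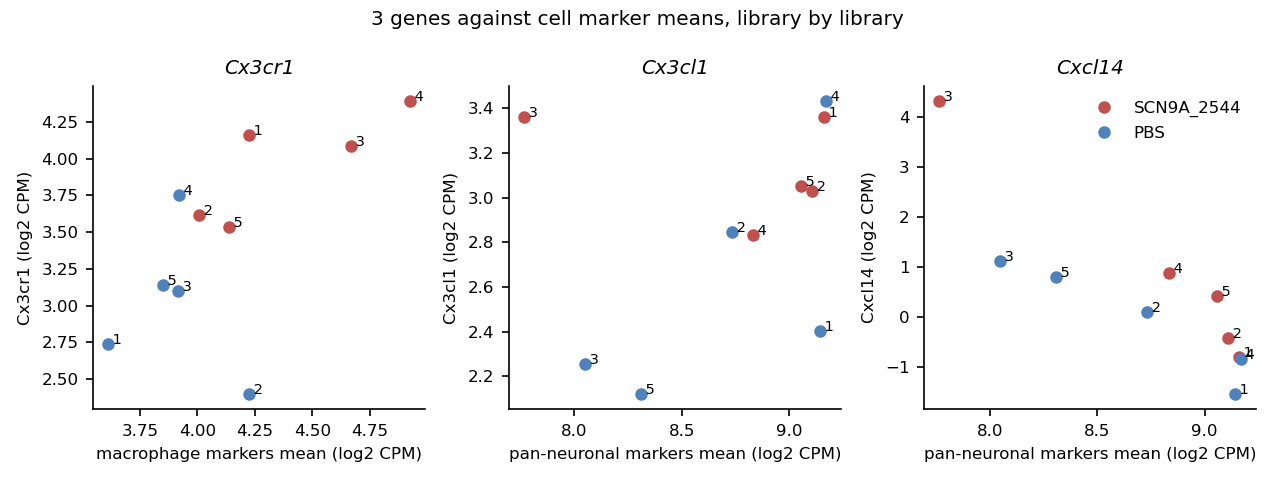
Log2 CPM of Cx3cr1 against the macrophage marker mean, and of Cx3cl1 and Cxcl14 against the pan-neuronal marker mean, 1 point per library with its replicate number, SCN9A_2544 in red and PBS in blue. SCN9A_2544 replicate 3 stands apart at the lowest neuronal mean, 7.77 log2 CPM, in the panels of Cx3cl1 and Cxcl14.

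Cxcl16 (ENSRNOG00000026647) encodes a membrane-bound chemokine and scavenger receptor that binds CXCR6. It stood at 16.1, 16.4, 11.9, 23.8 and 14.2 CPM in SCN9A_2544 replicates 1 to 5, against 12.4, 7.78, 12.7, 15.7 and 11.8 CPM in PBS replicates 1 to 5. Of the SCN9A_2544 libraries 3 lay above the PBS range, and replicate 3 lay below the PBS median of 12.4 CPM. The mean was 16.5 ± 4.46 CPM in SCN9A_2544 and 12.1 ± 2.84 CPM in PBS ganglia (SD, n = 5 each). The edgeR log2 fold change was 0.45 (SE 0.22, 95% interval -0.03 to 0.93), and it was 0.28 without SCN9A_2544 replicate 4 and 0.78 with limma voom. Its counts held fractions in all 10 libraries, as counts that divide reads between features do, while the other 7 genes had whole counts throughout. Its receptor gene Cxcr6 stood at 0.99 ± 0.50 CPM in SCN9A_2544 and 0.73 ± 0.27 CPM in PBS ganglia (SD, n = 5 each), giving 0.43 as log2 fold change (95% interval -0.48 to 1.34), and 0.13 without SCN9A_2544 replicate 1.

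Ccl2 (ENSRNOG00000007159), a monocyte attractant that sensory neurons also make after nerve injury, stood at 8.60, 8.37, 6.33, 14.2 and 13.8 CPM in SCN9A_2544 replicates 1 to 5, against 13.1, 5.79, 6.25, 7.09 and 8.68 CPM in PBS replicates 1 to 5. SCN9A_2544 replicates 4 and 5 lay above the PBS range, and PBS replicate 1 lay above the other SCN9A_2544 libraries. The mean was 10.3 ± 3.52 CPM in SCN9A_2544 and 8.18 ± 2.97 CPM in PBS ganglia (SD, n = 5 each), and the edgeR log2 fold change was 0.33 (SE 0.29, 95% interval -0.30 to 0.95). It was 0.56 without PBS replicate 1 and 0.18 without SCN9A_2544 replicate 4. Ccr2, the receptor of CCL2 on monocytes, stood at 5.90 ± 3.16 CPM in SCN9A_2544 and 4.03 ± 2.77 CPM in PBS ganglia (SD, n = 5 each). Its log2 fold change was 0.55 (95% interval -0.55 to 1.64), and it was 0.18 without SCN9A_2544 replicate 4, 0.89 without PBS replicate 2, 0.044 without the 3 neuron-poor libraries and below 0 under 2 alternatives. Ccl7, the neighbour of Ccl2 in the RefSeq annotation, stood at 1.56 ± 0.84 CPM in SCN9A_2544 and 1.62 ± 0.35 CPM in PBS ganglia (SD, n = 5 each).

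Other genes of the pathway were counted from lists of ligands, receptors, and proteases and inducers. Of 28 further chemokine ligands, 27 had a row and 6 were tested. Among these 6, 0 passed an adjusted p of 0.05 by edgeR or DESeq2, 2 had a log2 fold change above 0 and 4 below, and the median was -0.06. Ccl24, an eosinophil attractant made by macrophages, stood at 0.74 ± 0.27 CPM in SCN9A_2544 and 1.69 ± 0.92 CPM in PBS ganglia (SD, n = 5 each), giving -1.20 as log2 fold change (95% interval -2.27 to -0.12) and an adjusted p of 0.963 by edgeR. Ccl21, a lymphatic chemokine, had a log2 fold change of 0.99 (95% interval -1.10 to 3.08) that was 3.05 without PBS replicate 4, 0.59 without the 3 neuron-poor libraries and 0.58 without SCN9A_2544 replicate 4. Pf4, a platelet chemokine, had one of -0.37 (95% interval -1.25 to 0.51), which was above 0 without PBS replicate 4 and -0.76 without the 3 neuron-poor libraries. Ccl27, which binds CCR10, had one of 0.18 (95% interval -0.25 to 0.61), and 0.086 without PBS replicate 2.

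Of 22 chemokine receptors and scavenging receptors, 21 had a row and 10 were tested, and 0 passed by edgeR or DESeq2. The log2 fold change was above 0 for 8 and below 0 for 2, its median was 0.11, and 0 had an unadjusted p under 0.05. The 4 with the smallest p were Ccr2 and Cxcr6, given above, Ccr10 at 0.31 (95% interval -0.47 to 1.09) and the scavenging receptor Ackr4 at 0.34 (95% interval -0.61 to 1.29). Ccr10 was at 0.087 and Ackr4 at 0.10 without PBS replicate 5, and without the 3 neuron-poor libraries Ccr10 was at -0.011 and Ackr4 at 0.015.

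Of 13 proteases and inducers, 12 had a row and 9 were tested, with 0 past the threshold by edgeR or DESeq2, 6 above 0 and a median of 0.12. Ctss encodes cathepsin S, the protease that frees fractalkine from the membrane in the rat spinal cord. It stood at 33.6, 31.7, 44.7, 59.3 and 30.6 CPM in SCN9A_2544 replicates 1 to 5, against 19.0, 20.4, 26.5, 23.3 and 19.0 CPM in PBS replicates 1 to 5. Every SCN9A_2544 library lay above every PBS library, as in 0.454% of all genes. Its log2 fold change was 0.89 (SE 0.20, 95% interval 0.45 to 1.32) with an adjusted p of 0.963 by edgeR and 0.0705 by DESeq2, and it was 0.42 with the macrophage marker mean as a covariate, a mean that holds Ctss itself. The sheddases Adam10 and Adam17, which cut fractalkine and CXCL16 at the cell surface, did not pass either, at -0.13 for Adam10 (95% interval -0.78 to 0.52) and 0.41 for Adam17 (95% interval -0.46 to 1.29), a value that turned below 0 without SCN9A_2544 replicate 3 and was 0.19 without the 3 neuron-poor libraries. Nfkbia, an inhibitor and target of NF-kB, had one of -0.49 (95% interval -1.20 to 0.22), and -0.15 without PBS replicate 3.

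**Figure D4:**
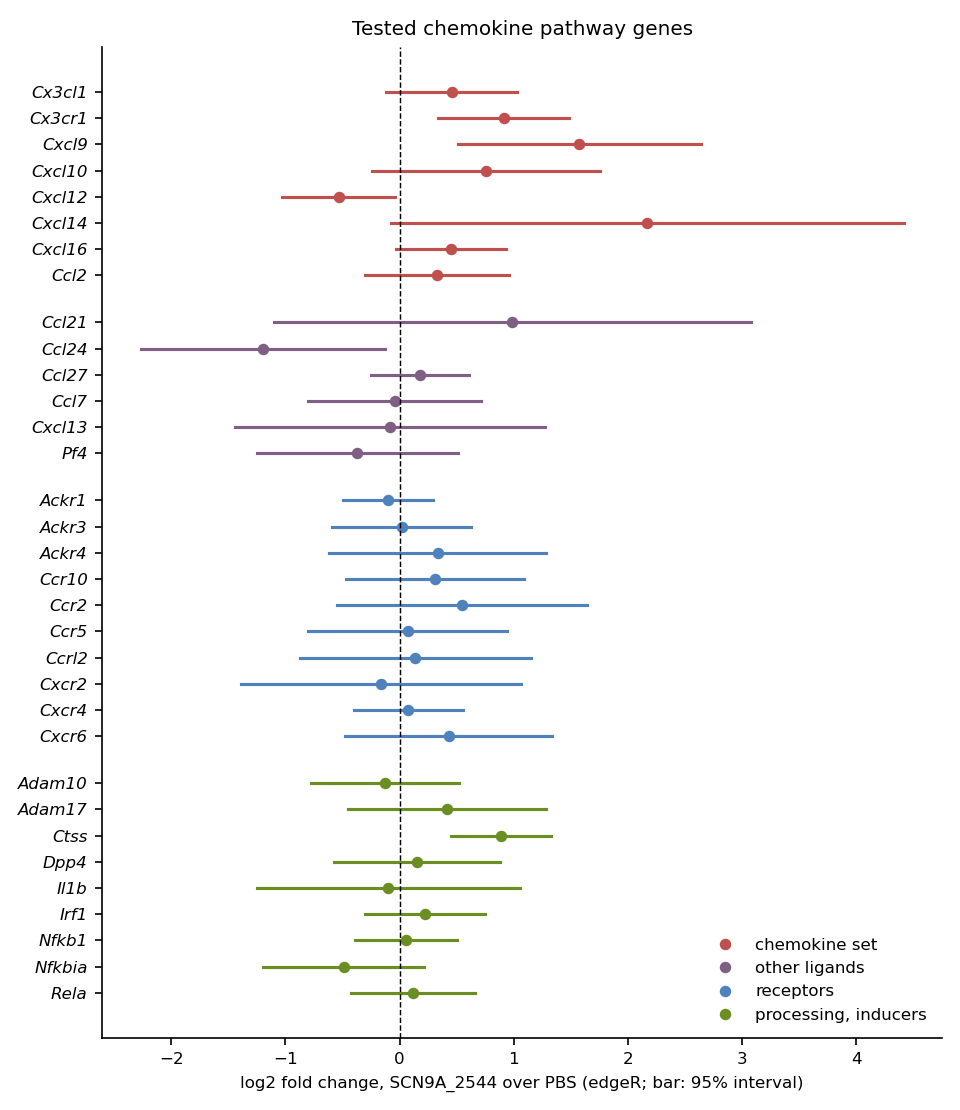
Log2 fold change of SCN9A_2544 over PBS with its 95% interval by edgeR, on the horizontal axis, for the 8 genes and every other tested chemokine pathway gene, grouped by list. The intervals of Cx3cr1, Cxcl9 and Ctss lie above 0 and those of Cxcl12 and Ccl24 below it, and none of these genes passed the adjusted threshold.

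For each of the 8, the 3 genes with a symbol whose log2 CPM had the highest Pearson r with it over the 10 libraries were taken, as a description: with 15186 genes and 10 libraries high values are bound to occur. For Cx3cr1 these were Sidt2 (0.934), Tmem98 (0.91) and Fbxo10 (0.909), and for Cx3cl1 Syvn1 (0.968), Tprn (0.964) and Capn15 (0.954). Cxcl9 ran most closely with Ripk3 (0.936), RGD1559482 (0.911) and Tubb6 (0.909), and Cxcl10 with Csnk2a2 (0.923), Pdgfc (0.907) and Sumf2 (0.895). Cxcl12 had the lowest of these maxima, with Ankrd37 (0.834), Pet100 (0.806) and Zfp174 (0.804). Cxcl14 had the highest, with Creld2 (0.98), Asxl1 (0.978) and Arpc1b (0.977), all measured with SCN9A_2544 replicate 3 in the data. Cxcl16 ran with Arg1 (0.923), Pip5k1b (0.912) and Dclk1 (0.885), and Ccl2 with Exd1 (0.886), Mthfd2 (0.881) and Cdh9 (0.874).

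**Figure D5:**
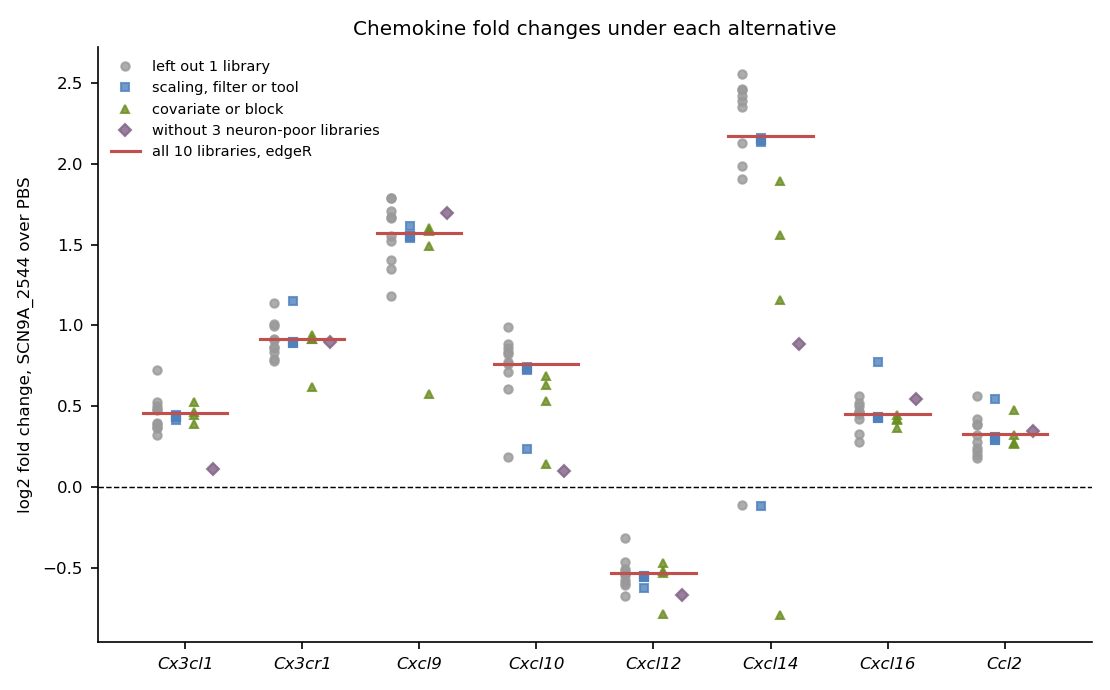
Log2 fold change of SCN9A_2544 over PBS for each of the 8 genes with all 10 libraries (red line) and under the 20 alternatives (points, by kind). The sign turned for Cxcl14 under 3 alternatives and for none of the other 7 genes, and Cx3cl1 and Cxcl10 came closest to 0 without the 3 neuron-poor libraries, at 0.11 and 0.097.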

How the data were processed

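Per the labels' protocols, poly(A)-enriched RNA was sequenced as paired reads. The authors deposited estimated counts per gene for the 10 libraries without normalization, and 11.6% to 12.4% of a library's values held fractions. Per the submitters' processing notes the tools included STAR (2.7.10a) and DESeq2 (1.44.0), and mRatBN7.2 was the build. Which program counted, with which annotation and strand setting, is not given in the sources used here.

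Estimated counts were rounded to whole numbers. Genes were filtered with filterByExpr (minimum count 10, total 15), scaled by TMM and tested, SCN9A_2544 against PBS, with the quasi-likelihood F-test of edgeR 4.0.16 in R 4.3.3, with Benjamini-Hochberg adjustment over all genes at 0.05. The standard error is the log2 fold change divided by the square root of F. Log2 CPM used a prior count of 2. Alternatives used DESeq2 1.42.0, limma 3.58.1, other scalings, no filter, covariates, a replicate block and left-out libraries. Correlations used 100000 permutations. The procedure was tested on simulated data with 50 changed genes per fold. It recovered 4% of 1.5-fold, 32% of 2-fold, 76% of 3-fold and 94% of 4-fold changes, with 8 false calls.

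The genes and lists were chosen with earlier results of these data known, and the motif forms after an earlier search of the same windows. Beside the 8 genes, the text names the 4 genes of smallest p in each pathway list and the 3 genes most like each of the 8. Cxcr4, Ackr3, Ccl7, Adam10, Dcn, Fbln1 and the low-count genes were chosen after their values were seen. List genes with no row were not analysed here.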

Additional observations from a re-analysis of the deposited data

Results flagged for a closer look

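A sample was singled out where its gap to the nearest other library of its group, as a share of the group's range, exceeded Dixon's critical value of 0.71 for 5 libraries. For values that follow a normal distribution, chance gives this in about 1 in 20 groups. Of 40 groups examined (20 genes in 2 groups), 5 met the rule, each through its highest library. The rule was applied to CPM without taking logs, and such values tend to be skewed towards high ones. The share of groups that met it therefore cannot be set against 1 in 20. Cxcl14 stood at 19.8 CPM in SCN9A_2544 replicate 3, while the next highest library of that group was at 1.70 CPM. Adam17 stood at 174 CPM in SCN9A_2544 replicate 3, where the next highest was at 55.9 CPM, and at 101 CPM in PBS replicate 3, where the next highest was at 51.2 CPM. These are the 2 libraries with the lowest pan-neuronal means. With that mean as a covariate the log2 fold change of Adam17 was 0.39 (SE 0.16, against 0.40 without the covariate) and that of Cxcl14 was 1.56 (SE 0.33, against 1.03), and without the 3 neuron-poor libraries they were 0.19 for Adam17 and 0.88 for Cxcl14. Pf4 stood at 14.0 CPM in PBS replicate 4, where the next highest was at 5.36 CPM. Ccl21 stood at 16.1 CPM in the same library, where the next highest was at 2.06 CPM.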

How the results depend on the processing

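The 8 genes had 0 calls under all 20 alternatives, as did the other ligands and receptors. Over all genes the count of calls was 0 with all libraries, 17 with DESeq2, 1 with limma voom, with the pan-neuronal or the Schwann cell mean as a covariate and without the 3 neuron-poor libraries, and 0 to 1 with 1 library left out (1 without SCN9A_2544 replicate 2 or 3). At an unadjusted p under 0.05 edgeR had 642 genes, DESeq2 967 and limma voom 3175, and edgeR had 385 without PBS replicate 5 and 1642 without PBS replicate 4. The log2 fold change of Cxcl14 was -0.12 with limma voom and -0.79 with the macrophage mean as a covariate, and ran from -0.11 to 2.56 with 1 library left out. Ccr2 was at -0.028 with limma voom and -0.20 with the macrophage covariate, Adam17 at -0.25 with that covariate and from -0.18 (without SCN9A_2544 replicate 3) to 0.73 with 1 library left out, Pf4 from -0.56 to 0.18 (without PBS replicate 4), and Ccr10 at -0.011 without the neuron-poor libraries. The cause was not tested. Cx3cr1 relative to the macrophage mean ran from 0.21 to 0.62 with 1 library left out. In deviations from the group mean, the PBS library was most like the SCN9A_2544 library of its own number for 2 of the 5 numbers. Correlations of same-numbered libraries ran from -0.00625 to 0.567. These values cannot settle whether the numbers pair the samples. With the replicate block the log2 fold change of Cx3cr1 was 0.94, that of Cxcl9 1.49 and that of Cxcl14 1.16, with 0 genes called. With 5 libraries a group the 95% intervals stay wide, so a gene that missed the threshold is not shown to be unchanged. No control siRNA was analysed here, so effects of this siRNA's target and of any siRNA cannot be told apart.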

Other observations

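In the RefSeq annotation of GRCr8 the gene Cx3cl1 lies between Ccl17 and Ccl22, ligands of CCR4 made by dendritic cells and macrophages. Both were below the filter on low counts and are named here after their values were seen. Ccl17 had 13, 6, 3, 30 and 15 counts in SCN9A_2544 replicates 1 to 5, against 0, 1, 1, 3 and 0 counts in PBS replicates 1 to 5. Ccl22 had 13, 1, 7, 28 and 9 counts in SCN9A_2544 replicates 1 to 5, against 0, 3, 1, 1 and 3 counts in PBS replicates 1 to 5. In both the groups overlapped. DESeq2, which tests genes of this depth, gave adjusted p-values of 0.0839 for Ccl17 and 0.402 for Ccl22. The cytokine gene Il6, likewise below the filter and named after its values were seen, had 2, 3, 2, 20 and 3 counts in SCN9A_2544 replicates 1 to 5, against 2, 0, 0, 0 and 0 counts in PBS replicates 1 to 5, with a DESeq2 adjusted p of 0.618. SCN9A_2544 replicate 4, the library with the highest macrophage marker mean at 4.93 log2 CPM, held the most counts of Ccl17, Ccl22, Il6 and Cxcl11. Other genes below the filter, such as Ccl4, Ccl5 and Ccl19, had their most counts in other libraries. A link of these genes with the macrophage markers was not tested.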
